A study of Mus musculus with 14 samples.

Results

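SIM2 binding sites that carry a Mediator peak are described here. A SIM2 site was a place where peak centres of the FLAG-tagged protein lay within 100 bp of each other in at least 2 of 3 clones (A6, B8 and C4) that express it, with no peak of the EB3 control within 100 bp. The site was taken as the mean centre with 50 bp on either side. A site was a member where a MED1 or MED12 peak lay within 100 bp of it. This gave 365 members of 1229 SIM2 sites (29.7%), of which 131 had both MED1 and MED12, 218 had MED12 alone and 16 had MED1 alone. The members were chosen by their MED1 and MED12 peaks, so the presence and level of these 2 proteins at members are descriptions, and comparisons rest on the other libraries.

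All libraries came from mouse embryonic stem (ES) cells grown with serum and LIF and induced for 26 h by removing tetracycline. The clones A6, B8 and C4 each derive from 1 selected clone and carry a FLAG-tagged mouse Sim2 cDNA, followed by an IRES and the fluorescent reporter Venus, behind a tetracycline-regulated promoter in the ROSA locus. EB3 is the parental line, without the Sim2-FLAG transgene but induced and precipitated with the same anti-FLAG M2 antibody. NANOG, OCT4, MED1 and MED12 were each precipitated once, from A6, and from the same cross-linked pellets that gave the A6 FLAG library. SIM2 is therefore an expressed transgene product in every SIM2 library, and no Mediator library of EB3 was used here, so sites with and without induced SIM2 were not compared. Peaks were called against an input for each library, with 1 input shared by MED1 and MED12 and another shared by NANOG and OCT4. The lists held 2387 peaks for A6, 2137 for B8, 631 for C4, 81 for EB3, 14815 for NANOG, 2532 for OCT4, 762 for MED1 and 1071 for MED12. Levels are given as normalized tag counts, that is tags per 10 M (megatags) as HOMER scales them, and are compared only between sites of the same library. The steps between these values correspond to libraries of 12.9 to 31.5 M tags if that scale holds. The raw Mediator peaks were small. At SIM2 sites they held 14 to 61 tags in MED1 (median 21, exact Poisson 95% interval 13.0 to 32.1) and 14 to 79 tags in MED12 (median 20, interval 12.2 to 30.9). Apart from the 3 SIM2 clones no library had a replicate, so intervals on shares cover counting error only.

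SIM2 is a transcription factor of the basic helix-loop-helix PAS family, which binds DNA as a dimer with ARNT. Mediator is a large complex that links transcription factors on enhancers with RNA polymerase II at promoters. MED1 is a subunit that many factors contact, and MED12 belongs to the kinase module. OCT4 and NANOG are core transcription factors of pluripotent cells, and OCT4 often binds next to SOX2 on a composite DNA motif. In ES cells Mediator is dense on enhancers bound by these factors, and clusters of such enhancers near cell identity genes are known as super-enhancers.

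The sequences of 6 members are printed as examples, chosen among members that carry a motif match. The sites downstream of Klf4, Sall1 and Prdm14 were bound in all 3 clones and by all 4 other proteins. Jarid2 and Mctp2 represent the few members without a NANOG peak within 100 bp, and Tdgf1 a member with MED1 alone. Each line gives 200 bp of mm9, plus strand, centred on the site. Most members lack these motifs: the SOX core was found at 19.7% of members, the SOX-OCT composite core at 6.03% and the SIM2-ARNT core at 3.01%. Capitals mark a match to the SOX core AACAAAG at Klf4, Prdm14 and Jarid2, to the SOX-OCT composite core TTGTNATGC at Sall1 and Mctp2, and to the SIM2-ARNT core TACGTG at Tdgf1, on either strand.
Klf4, chr4:55488325-55488524: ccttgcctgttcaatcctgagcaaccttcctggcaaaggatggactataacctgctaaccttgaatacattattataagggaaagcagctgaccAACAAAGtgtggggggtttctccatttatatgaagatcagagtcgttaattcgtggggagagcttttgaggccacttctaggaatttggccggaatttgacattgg
Sall1, chr8:91527516-91527715: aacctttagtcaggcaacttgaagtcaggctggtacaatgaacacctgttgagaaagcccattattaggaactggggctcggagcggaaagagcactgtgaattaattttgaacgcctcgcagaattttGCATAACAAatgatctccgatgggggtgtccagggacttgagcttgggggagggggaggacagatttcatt
Prdm14, chr1:13074838-13075037: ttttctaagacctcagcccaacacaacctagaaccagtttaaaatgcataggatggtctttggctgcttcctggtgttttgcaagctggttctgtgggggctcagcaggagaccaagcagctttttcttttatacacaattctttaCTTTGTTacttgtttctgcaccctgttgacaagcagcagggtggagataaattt
Jarid2, chr13:44817682-44817881: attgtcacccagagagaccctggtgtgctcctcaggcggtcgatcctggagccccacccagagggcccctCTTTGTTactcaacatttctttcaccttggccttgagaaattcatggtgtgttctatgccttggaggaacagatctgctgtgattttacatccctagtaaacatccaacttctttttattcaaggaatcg
Mctp2, chr7:79470929-79471128: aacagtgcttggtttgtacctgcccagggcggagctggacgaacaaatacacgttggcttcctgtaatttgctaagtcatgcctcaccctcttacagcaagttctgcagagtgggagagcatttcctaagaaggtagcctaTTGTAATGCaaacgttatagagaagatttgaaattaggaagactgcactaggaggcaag
Tdgf1, chr9:110849640-110849839: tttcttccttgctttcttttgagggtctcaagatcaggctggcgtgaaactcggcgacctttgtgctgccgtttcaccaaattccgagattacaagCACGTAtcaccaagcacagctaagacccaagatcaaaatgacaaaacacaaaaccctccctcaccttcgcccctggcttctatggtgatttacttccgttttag

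Almost all members had NANOG, and most had OCT4. NANOG was present at 357 of 365 members (97.8%) against 651 of 864 other SIM2 sites (75.3%), with 82.0% among all SIM2 sites. The difference of 22.5 percentage points had a 95% Newcombe interval of 19.0 to 25.6. OCT4 was present at 271 members (74.2%) against 297 other sites (34.4%), with 46.2% among all SIM2 sites, a difference of 39.9 points (34.2 to 45.1). Read the other way, Mediator was found at 266 of 555 SIM2 sites with both NANOG and OCT4 (47.9%, Wilson 95% interval 43.8 to 52.1) and at 91 of 453 sites with NANOG alone (20.1%, 16.7 to 24). It was found at 5 of 13 sites with OCT4 alone and at 3 of 208 sites with neither protein (1.44%, 0.492 to 4.15). SIM2 sites without either pluripotency factor thus rarely carried a Mediator peak at this depth.

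The share with Mediator followed the NANOG level. SIM2 sites with a NANOG peak were split into 5 bins of similar size by NANOG tag count, and the share of members was 13.2%, 22.8%, 29.8%, 48.9% and 67.0% from the lowest to the highest bin. In the highest bin, from 21.7 to 64.3 NANOG tags, 122 of 178 sites that also had OCT4 were members (68.5%, 61.4 to 74.9) and 6 of 13 without OCT4 (46.2%, 23.2 to 70.9). In the lowest bin the values were 8 of 37 with OCT4 (21.6%, 11.4 to 37.2) and 20 of 175 without (11.4%, 7.52 to 17.0). In every bin the share was higher with OCT4 than without, although the intervals of these groups overlapped. No interval of the difference was computed within a bin, so OCT4 at a given NANOG level was not tested. The share also followed OCT4: it was 31.1% in the lowest and 76.0% in the highest of 5 bins of OCT4 tag count.

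**Figure D1:**
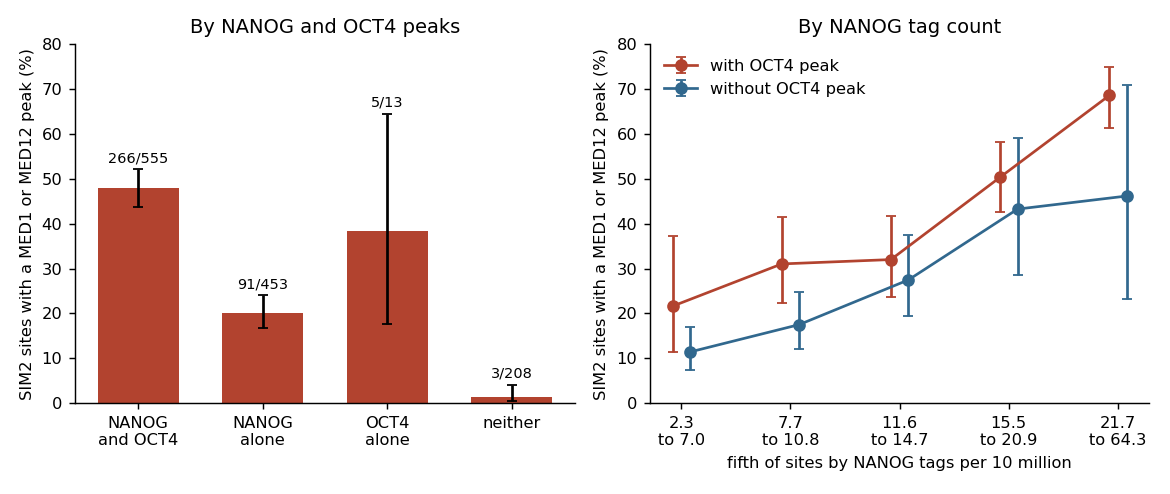
Share of SIM2 sites with a MED1 or MED12 peak, in percent. Left, bars give sites by their NANOG and OCT4 peaks, with members over sites above each bar, from 266 of 555 with both proteins to 3 of 208 with neither. Right, points give sites in 5 bins of NANOG tag count (tags per 10 M), with and without an OCT4 peak, rising to 68.5% with OCT4 in the highest bin. Error bars are Wilson 95% intervals.

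The median NANOG level was higher at SIM2 sites with Mediator than at those without. The median NANOG tag count was 17.8 at members (lowest 3.9, highest 64.3, 357 sites) and 10.1 at other sites (2.3 to 49.6, 651 sites). The medians fell in the order MED1 and MED12 (20.9), MED12 alone (17.0), MED1 alone (11.6) and no Mediator (10.1), although the ranges of all 4 classes overlapped. For OCT4 the medians were 7.3 at members and 5.7 at other sites. Among sites with both NANOG and OCT4, the 266 members had a median of 20.1 NANOG tags against 14.7 at 289 other sites, and 7.3 OCT4 tags against 5.7. In unscaled tags of the NANOG peaks the same 2 groups had medians of 52 and 36. NANOG and OCT4 each come from 1 library of the same cells as the Mediator libraries, so these differences were not compared with a spread between replicates.

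**Figure D2:**
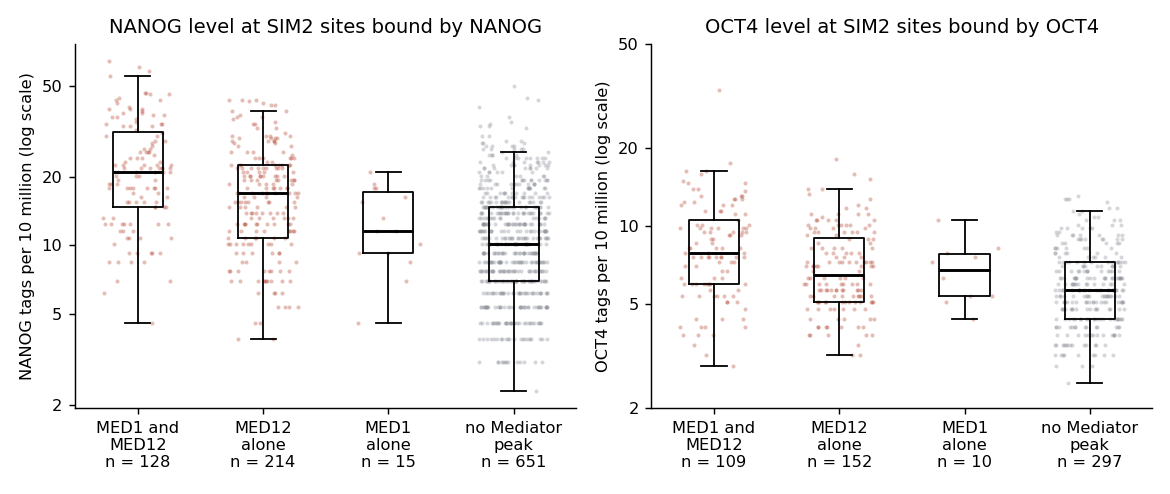
NANOG (left) and OCT4 (right) tags per 10 M on a log scale at SIM2 sites with a peak of that protein, by Mediator class. Each point is a site, the box gives the quartiles with the median as a thick line, and whiskers reach to 1.5 times the quartile range. The NANOG median is 20.9 at sites with MED1 and MED12 and 10.1 at sites without Mediator.

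Only 8 members had no NANOG peak within 100 bp. In 7 of them a NANOG peak lay a little farther away, 102 to 213 bp from the site, whereas 12 of the 213 other SIM2 sites without NANOG had one within 250 bp. The site 7062 bp upstream of Jarid2, which encodes a component of Polycomb repressive complex 2, had the highest MED12 value of the 8. It lies at chr13:44817731-44817831, between genes, and had 28.3, 6.8 and 3.7 FLAG tags in A6, B8 and C4, 10.5 tags of OCT4 and 28.6 tags of MED12, with a NANOG peak 170 bp and a MED1 peak 123 bp away. The site 4462 bp upstream of Nanog itself (chr6:122652995-122653095) had 12 tags in A6 and 4.1 in B8, 3.8 of OCT4, 8.3 of MED1 and 10.6 of MED12, and its nearest NANOG peak was 213 bp away. Pawr, whose product promotes apoptosis, had a site 44932 bp upstream that was found in all 3 clones and had MED1 (6.4 tags), MED12 (11.3) and OCT4 (6.7) in A6. Mctp2 had a site 19547 bp upstream with OCT4 (7.6 tags) and MED12 (10 tags), and with NANOG 102 bp away. A further 3 of the 8, near Six4, Ppp2r5c and Foxd3, had neither protein within 100 bp. Of these the site in an intron of Ppp2r5c, a regulatory subunit of protein phosphatase 2A, had the weakest Mediator signal (2.7 MED12 tags) and its nearest NANOG peak was 474 bp away.

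Within the members, MED12 was stronger where MED1 was also called. Its median was 10 tags at the 131 sites with both and 6.7 at the 218 sites with MED12 alone, and MED1 had a median of 7.0 tags at the 131 sites. As a description, MED1 and MED12 tag counts had a Spearman correlation of 0.64 across the 131 sites, which share clone, input and depth, against 0.43 for MED12 and NANOG (128 sites) and 0.25 for MED12 and SIM2 in A6 (129 sites). For MED1 the values were lower, 0.17 with NANOG and 0.10 with SIM2 in A6. OCT4 was present at 83.2% of sites with both proteins and at 69.7% of sites with MED12 alone, a difference of 13.5 points (4.19 to 21.9). NANOG shares were 97.7% and 98.2%, and the interval of their difference ran from -4.83 to 2.71 points. Peak centres lay close together. The median distance from the SIM2 centre was 37 bp to NANOG, 36 bp to OCT4, 49 bp to MED12 and 66 bp to MED1. At the 256 members with NANOG, OCT4 and MED12, NANOG and OCT4 centres were 22.5 bp apart in the median, closer than NANOG and MED12 (41.5 bp). The rule limits all distances from SIM2, and more widely for the broader Mediator peaks than for NANOG and OCT4 peaks, so their order is a description.

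SIM2 levels differed little between members and other sites. In A6 the median FLAG tag count was 14.6 at 359 members (lowest 8.6, highest 42.5) and 12.9 at 857 other sites (8.6 to 35.2). In B8 it was 5.4 at 352 members (1.4 to 20.4) and 5.4 at 836 other sites (1.4 to 19.1), and in C4 it was 5.1 at 139 members (2.2 to 17.6) and 5.1 at 261 other sites (2.2 to 13.9). The ranges overlapped in every clone. Split into 4 bins of A6 tag count, SIM2 sites were members in 24.3% (20 to 29.1), 22.9%, 30.8% and 41.4% (35.9 to 47.1), from the lowest to the highest bin. For B8 the shares were 28.9%, 23.5%, 30.5% and 38.0%, and for C4 34.4%, 32.1%, 36.1% and 36.6%. The highest bin thus had the highest share in each clone, though in C4 the intervals of all bins overlapped. In B8 its interval was 32.35 to 43.93%, against 24.2 to 34.06% in the lowest bin and 19.43 to 28.2% in the next. The mean difference of members minus other sites over the 3 clones was 0.06 ± 0.10 on the log2 scale (SD, n = 3). The exact two-sided sign-flip permutation test gave p = 1.0, where 3 clones cannot give less than 0.25. With equal medians in B8 and C4 the test could give no other value, so it does not bear on the A6 difference. Tag counts of B8 and C4 fall on coarse steps, which makes medians tie. By fold over input the medians in B8 were 6.81 at members and 5.96 at other sites. With the mean of log2 values, a measure chosen after the data were seen, the difference was above 0 in 3 of 3 clones, at 0.17, 0.09 and 0.06 in A6, B8 and C4 (exact permutation test, p = 0.25, the smallest possible with n = 3). Members were found in all 3 clones somewhat more often than other sites, 120 of 365 (32.9%) against 226 of 864 (26.2%), with 28.2% among all SIM2 sites and a difference of 6.72 points (1.19 to 12.4). Among sites with NANOG and OCT4 the shares were 35.7% and 36.7%, with an interval of the difference from -8.90 to 7.02 points.

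**Figure D3:**
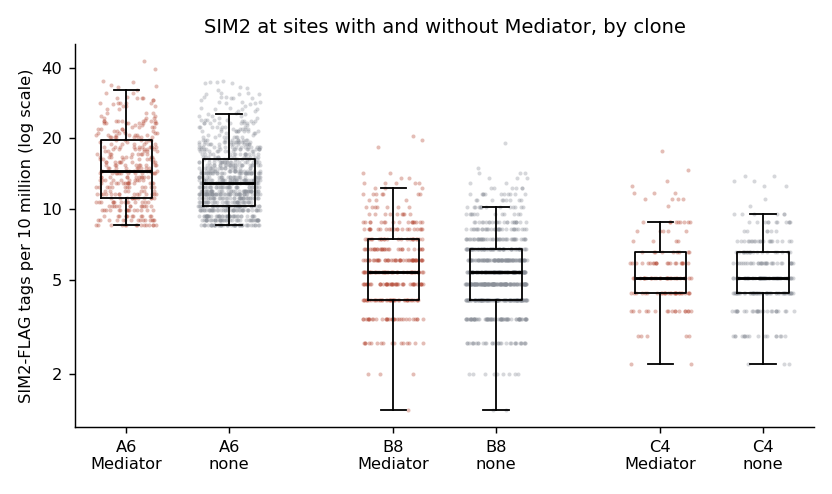
SIM2-FLAG tags per 10 M on a log scale at sites with a peak in clone A6, B8 or C4, for members (Mediator) and other SIM2 sites (none). Each point is a site, and the box gives the quartiles and the median, which is 14.6 against 12.9 tags in A6 and the same for both groups in B8 and in C4. Levels are comparable within a clone only.

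Places bound in a single clone carried Mediator less often, and differently by clone. A MED1 or MED12 peak lay at 211 of 1161 places found in A6 alone (18.2%, 16.1 to 20.5), at 110 of 946 found in B8 alone (11.6%, 9.74 to 13.8) and at 13 of 229 found in C4 alone (5.68%, 3.35 to 9.47), against 120 of 346 in all 3 clones (34.7%, 29.9 to 39.8). The Mediator libraries were made from A6, and clone and depth of the FLAG library cannot be told apart here. No member had an EB3 peak within 10 kb, and none of the 81 EB3 peaks had a Mediator peak within 100 bp (Wilson upper limit 4.53%).

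Among members bound in all 7 libraries, several with the strongest Mediator signal lay near genes of the pluripotency network. Of the 44 members found in all 3 clones with NANOG, OCT4, MED1 and MED12, the 12 with the highest mean percentile of MED1 and MED12 lay near Klf4, Manba, Sall1, Dennd2a, Klf5 (2 sites), Prdm14, Smad7, Trps1, Zbtb45, Katnal2 and Fam53a. Members outside these 44 were not ranked, and MED12 reached 29.9 tags at members with MED12 alone. The site 56218 bp downstream of the start of Klf4, a zinc finger factor used in reprogramming, had 17.6, 8.2 and 8.8 FLAG tags in A6, B8 and C4. It also had 36.4 tags of NANOG, 11.4 of OCT4, 17.2 of MED1 and 27.9 of MED12. The Sall1 site, 40446 bp downstream of this zinc finger gene, had 34.8, 18.4 and 11.7 FLAG tags, 34.1 of NANOG, 13.9 of OCT4, 16.5 of MED1 and 29.3 of MED12. Both sites lay between genes.

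Near Klf5, a second Krüppel-like factor that sustains self-renewal, 2 sites stood 26081 and 41186 bp downstream of the start. The first (chr14:99723941-99724041) had 35.2, 14.3 and 11.7 FLAG tags with 16.5 of MED1 and 16.0 of MED12. The second (chr14:99739046-99739146) had 28.3, 8.2 and 7.3 FLAG tags with 10.2 of MED1 and 24.6 of MED12. In unscaled tags the 2 sites had 47 and 42 in MED1 and 55 and 56 in MED12. Their order was the same on both scales, but the size of the MED12 gap depended on the scale. Prdm14, which represses DNA methylation and differentiation genes, had a site 42307 bp downstream with 31.3, 9.5 and 11 FLAG tags, 39.5 of NANOG, 7.6 of OCT4, 10.8 of MED1 and 16.0 of MED12. Smad7, an inhibitor of TGF-β signalling, had a site 6638 bp upstream with 24.9, 8.8 and 7.3 FLAG tags, 8.9 of MED1 and 15.3 of MED12.

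The remaining sites of the 12 were near genes with other roles. Manba, which encodes the lysosomal enzyme beta-mannosidase, had its site in an intron 1920 bp from the start (chr3:135209490-135209590). The site had 18.4, 8.8 and 4.4 FLAG tags, 43.4 of NANOG and the highest normalized MED12 value of all members, 31.9. In unscaled MED12 tags it had 75, below the 79 at the site 7062 bp upstream of Jarid2. At Dennd2a the site 24372 bp downstream had 29.2, 8.8 and 5.9 FLAG tags, 14.6 of MED1 and 23.9 of MED12. Trps1, a GATA-type repressor, had a site 10469 bp upstream that combined strong SIM2 (24.5, 12.9 and 11.7 tags) with the lowest NANOG value (13.2) and the lowest OCT4 value (5.7) of the 12. The sites near Zbtb45, Katnal2 and Fam53a had 8.3 to 10.8 tags of MED1 and 9.3 to 11.3 of MED12. The A6 value stood at or above the 87.3 percentile of its list at all 12, whereas C4 was at the 37.0 percentile at Manba and B8 at the 49.6 percentile at Fam53a.

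**Figure D4:**
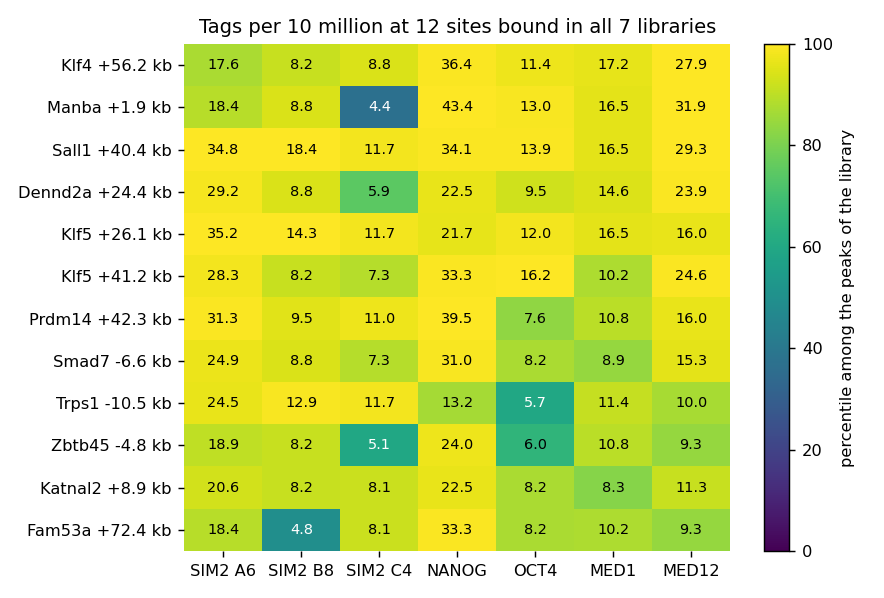
Tags per 10 M (numbers) and percentile among the peaks of the library (colour, 0 to 100) at the 12 members bound in all 7 libraries with the highest MED1 and MED12 percentiles. Rows are sites named by nearest gene and distance from its start in kb (minus is upstream), and columns are libraries. Manba shows the highest MED12 value, 31.9, and a low C4 value, 4.4.

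Members with MED1 but without MED12 were few. Their 16 MED1 values ran from 3.2 to 10.8 tags with a median of 6.05, against 7.0 at the 131 members with both proteins, and their NANOG median was 11.6 tags. The 5 with most MED1 lay near Tdgf1, Sox2, Sulf1, Six4 and Hist1h1c. The site 1077 bp upstream of Tdgf1, which encodes the Nodal co-receptor CRIPTO (chr9:110849689-110849789), had 30, 10.2 and 8.8 FLAG tags, 13.2 of NANOG, 7.6 of OCT4 and 10.8 of MED1. The nearest MED12 peak was 726 bp away. A SIM2-ARNT core lay across the centre of this site. The site 111170 bp downstream of Sox2 (chr3:34660178-34660278), the pluripotency factor that pairs with OCT4, had 14.6 tags in A6 and 4.1 in B8, 10.1 of NANOG and 10.8 of MED1, and MED12 peaks began 3125 bp away. At Sulf1, an extracellular sulfatase, and Six4, a homeobox factor, a MED12 peak lay 278 and 246 bp away, outside the window.

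The loci of pluripotency genes differed in how much of their Mediator coincided with SIM2 sites, which need a peak in at least 2 clones. The 6 loci described here were picked with their values known. Within 130 kb of the Klf4 start all 3 SIM2 sites were members, at 54148, 56218 and 67357 bp, and all 3 MED1 and all 3 MED12 peaks coincided with them. Near Klf5, 2 of 3 SIM2 sites were members and took 2 of 2 MED1 and 2 of 3 MED12 peaks. Sox2 had the most members of any nearest gene, 4 of 5 SIM2 sites, and 1 of 3 MED1 and 3 of 8 MED12 peaks there coincided with a SIM2 site. Peaks found in A6 alone, at 85097, 95438 and 108005 bp, lay close to further MED12 peaks, at 85193, 95497 and 108018 bp. The last had 19.3 tags, the most MED12 at this locus. Jarid2 had 3 members of 4 SIM2 sites, with 1 of 4 MED1 and 3 of 6 MED12 peaks. At Prdm14 the single SIM2 site took the only MED1 peak and 1 of 3 MED12 peaks. At Nanog both SIM2 sites were members and took 1 of 1 MED1 and 2 of 3 MED12 peaks. A peak found in A6 alone also lay close to a further MED12 peak at Jarid2 (-24038 and -23910 bp) and at Nanog (58805 and 58702 bp). No EB3 peak fell in these windows.

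**Figure D5:**
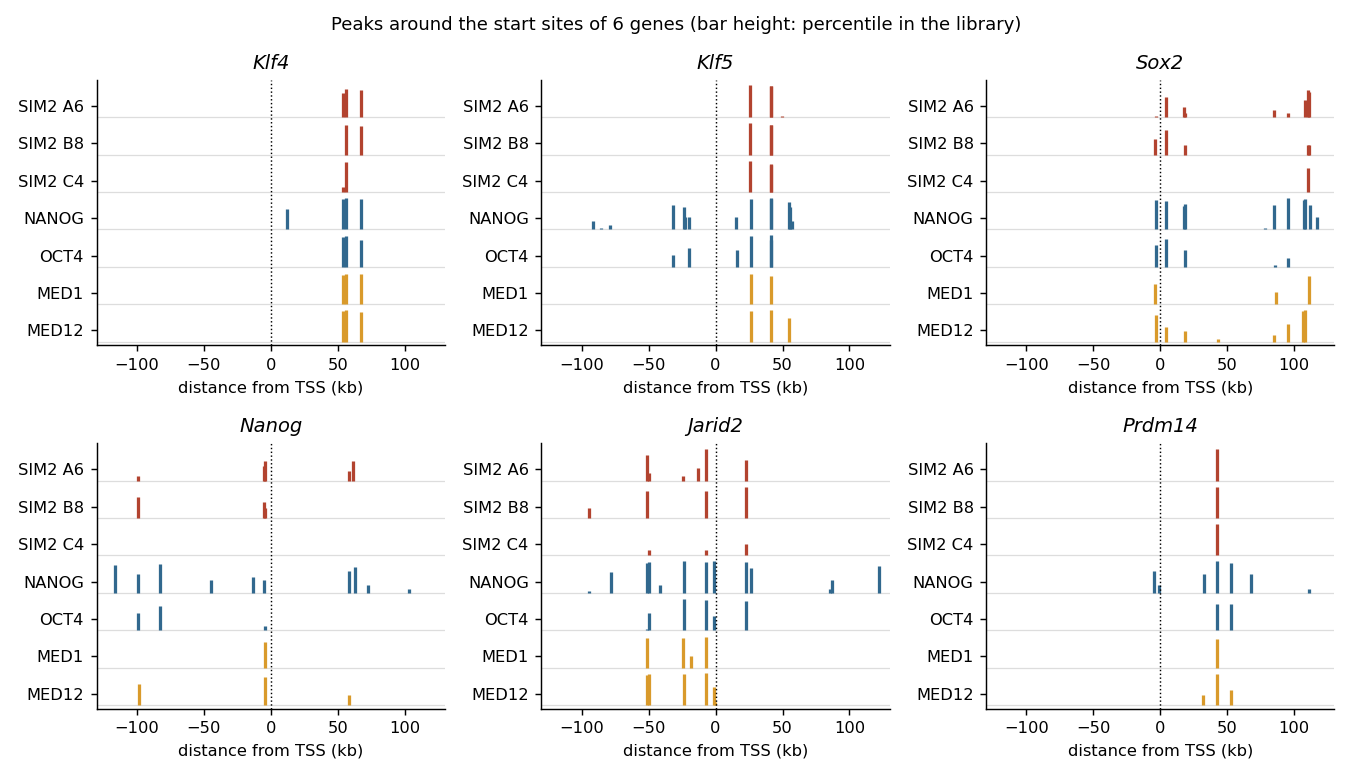
Peaks of 7 libraries within 130 kb of the start sites of Klf4, Klf5, Sox2, Nanog, Jarid2 and Prdm14. The x axis gives the distance from the TSS in kb, positive in the direction of transcription, and bar height gives the percentile of the peak in its library. All 3 MED1 and MED12 peaks at Klf4 stand at SIM2 sites, whereas Sox2 has 8 MED12 peaks of which 3 do. Some of the other MED12 peaks at Sox2 stand near a peak found in A6 alone, which is not a site.

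Members were frequent near transcription factor genes of the naive state. A member lay within 100 kb of the start of 13 of 21 such genes (61.9%, 40.9 to 79.2), 9 of 23 signalling genes of ES cells (39.1%, 22.2 to 59.2) and 7 of 18 chromatin and RNA regulators (38.9%, 20.3 to 61.4). Among formative and lineage factors it was 1 of 18 (5.56%, 0.988 to 25.8), and among all 22238 protein-coding genes 872 (3.92%). The lists were put together with earlier results of these data known, so their counts are not independent evidence. The same lists had any SIM2 site within 100 kb at 14, 13, 10 and 4 genes, against 2719 of all genes (12.2%). In the lineage list Foxd3 was the single gene of the 4 with a member.

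A member with both MED1 and MED12 within 50 kb was found for 8 of 21 naive genes, 3 of 23 signalling genes, 2 of 18 chromatin genes and 1 of 18 lineage genes, against 200 of all genes (0.899%). The 8 naive genes were Nanog, Klf5, Prdm14, Sall1, Esrrb, Tbx3, Zfp281 and Rest. At Esrrb, an orphan nuclear receptor of the naive network, the site 130 bp inside the start had 11.2 tags in A6, 4.1 in B8, 12.4 of NANOG, 10.2 of MED1 and 10.6 of MED12, with no OCT4 peak within 100 bp. At Tbx3, a T-box factor, the promoter site 345 bp upstream had 11.6 and 3.4 FLAG tags, 24 of NANOG, 13.0 of OCT4, 4.4 of MED1 and 8.0 of MED12. Zfp281, a zinc finger factor, had its site 49987 bp downstream, with 14.6, 8.2 and 5.1 FLAG tags, 7.6 of MED1 and 8.0 of MED12. Rest, a repressor of neuronal genes, had its site 3150 bp upstream, with 16.3, 9.5 and 5.1 FLAG tags, 5.1 of MED1 and 10 of MED12.

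The signalling genes were Lifr, Spry4 and Smad7. Lifr encodes the receptor for LIF, and its site 12626 bp upstream had 16.3 tags in A6 but 2.7 in B8, with 35.6 of NANOG, 9.5 of MED1 and 7.3 of MED12. Spry4, a feedback inhibitor of ERK signalling, had a site 27519 bp downstream with 14.6, 3.4 and 3.7 FLAG tags, 7.0 of MED1 and 4.7 of MED12. The chromatin genes were Dnmt3l, a cofactor of DNA methyltransferases (9.0 and 6.1 FLAG tags, 8.3 of MED1, 3.3 of MED12), and Trim28, a corepressor of zinc finger proteins, whose nearest such member is the Zbtb45 site. The lineage gene was Foxd3, a forkhead factor also needed for pluripotent cells. Its site 13954 bp upstream, present in A6 (13.3 tags) and C4 (5.1), had 7.0 tags of MED1 and 10 of MED12, with NANOG 132 bp and OCT4 192 bp away.

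Members lay between genes more often than other SIM2 sites. The intergenic share was 64.4% against 55.2%, a difference of 9.18 points (3.16 to 15.0), and the intronic share was 30.4% against 38.3%. Only 14 members (3.84%) fell in a promoter, taken as 1 kb upstream to 300 bp downstream of a start, against 42 other sites (4.86%), with an interval of the difference from -3.28 to 1.77 points. The median distance to the nearest TSS was 17513 bp at members and 22747 bp at other sites. Among sites with NANOG and OCT4 the medians stood farther apart, 17226 and 34257 bp, and 38.0% against 26.3% lay within 10 kb of a TSS, a difference of 11.7 points (3.90 to 19.3). The 16 members with MED1 alone lay at a median of 8043 bp from the nearest TSS and the 218 with MED12 alone at 17883 bp, with overlapping ranges. The 365 members had 327 different nearest genes. Sox2 had 4 members, Jarid2 and Klf4 had 3 each, and 31 further genes had 2.

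Members also lay closer to other SIM2 sites. Another SIM2 site stood within 10 kb of 57 of 365 members (15.6%, 12.2 to 19.7) and of 64 of 864 other sites (7.41%, 5.84 to 9.35), with 9.85% among all SIM2 sites. Members with another member within 10 kb numbered 34 (9.32%) and formed 17 pairs. This share was 1.63% without A6, 2.99% without B8 and 1.67% at sites in all 3 clones. By summed MED12 the leading pairs were at Klf4 (2070 bp apart), at Manba (890 bp) and upstream of Jarid2 (1378 bp). In the Klf4 pair the second site had 14.2 FLAG tags in A6 and 3.7 in C4, 12.7 of MED1 and 15.3 of MED12. In the Manba pair the second site had 17.2 and 4.1 FLAG tags in A6 and B8 and 8.6 tags of MED12. In the Jarid2 pair MED12 was 15.3 and 18.6 tags, and MED1 was called at the first site alone.

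Short DNA motifs set members apart only in part. Exact matches in 200 bp around the centre were counted on both strands for the octamer ATGCAAAT, the SOX-OCT composite core TTGTNATGC, the SOX core AACAAAG, the KLF core GGGTGTG, the ESRRB site CAAGGTCA and the SIM2-ARNT core TACGTG. The composite core can share letters with the octamer and with the SOX core. The SOX core was found at 19.7% of members and 13.5% of other SIM2 sites, a difference of 6.18 points (1.70 to 11.1), against 15.0% of all NANOG peaks and 7.13% of windows 10 kb from members. The octamer was found at 5.75% of members and 8.10% of other sites (difference -5.16 to 0.967 points), 6.96% of NANOG peaks and 1.37% of the windows. The composite core was found at 6.03% of members and 4.17% of other sites, with 5.52% of NANOG peaks and 0.823% of the windows.

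Among sites with both NANOG and OCT4 the octamer was less frequent at members, 18 of 266 (6.77%), than at other sites, 43 of 289 (14.9%), a difference of -8.11 points (-13.3 to -2.94). The KLF core went the other way in the same sites, 9.40% against 4.50%, a difference of 4.90 points (0.660 to 9.40). In these sites the SOX core was found at 22.56% of members and 17.3% of others, a difference of 5.255 points (-1.388 to 11.92). At sites with NANOG alone its shares were 10.99% of members and 12.98% of other sites. The SOX core difference over all SIM2 sites was thus not separated from the higher OCT4 share of members. The ESRRB site was found at 11.5% of sites with MED1 and MED12 and 5.50% with MED12 alone (difference 0.0962 to 12.9 points). The SIM2-ARNT core was rare, at 3.01% of members, 3.70% of other sites, 1.19% of NANOG peaks and 2.47% of the windows. Of 18 such differences computed over 3 pairs of groups, 4 had an interval without 0, and the intervals are not adjusted for their number. Median GC content was 46.5% at members, 48.5% at other sites, 43.0% at NANOG peaks and 44.5% in the windows, and its part in these shares was not tested.

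Seen from the Mediator side, the strongest peaks most often coincided with SIM2. A SIM2 site lay at 349 of 1071 MED12 peaks (32.6%, 29.9 to 35.4), from 21.6% in the lowest to 56.8% in the highest of 5 bins of MED12 tag count. For MED1 it lay at 147 of 762 peaks (19.3%, 16.7 to 22.2), from 12.2% to 33.1%. NANOG peaks with Mediator were then compared by whether SIM2 was there. At 359 NANOG peaks with Mediator and a SIM2 site the median was 17.8 NANOG tags and 7.3 MED12 tags, and 74.9% had OCT4. At 408 NANOG peaks with Mediator and no SIM2 peak of any clone the medians were 10.8 and 6.0 tags, and 48.5% had OCT4, a difference in the OCT4 share of 26.4 points (19.6 to 32.8). Both MED1 and MED12 were called at 37.0% of the first and 18.4% of the second.

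The edge of the window fell between sites that are given here as a description. The members whose nearest Mediator peak was farthest away lay near E330013P04Rik, Msx2 and Gpd2, at 97, 95 and 93 bp, with 3.3, 4.7 and 4.7 MED12 tags. The nearest other sites, near Rapgef5, 3930402G23Rik and Zc3h3, had a MED12 peak at 100, 100 and 101 bp. Most members were far from this edge, since in 338 of 365 the Mediator peak touched the site itself.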

How the data were processed

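Reads were aligned by the authors to mm9 with BWA, PCR duplicates were discarded, and HOMER compared every library with an input at default settings, which MED1 shared with MED12 and NANOG with OCT4. Tool versions are not given in the sources used here. The peak lists deposited by the authors hold a normalized tag count (a signal scaled by HOMER), total tags (whole counts in 5 lists, scaled in A6, EB3 and OCT4), control tags as a signal, a fold or ratio over the input, a focus ratio (a fraction), a peak score and p-values. The normalized tag count, total tags and fold were used. Peak lists hold called peaks only, so a missing peak is not a zero.

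SIM2 sites were built and overlapped with the other lists in Python 3.11.15 (pandas 2.3.3, scipy 1.17.1, pysam 0.24.0), with a peak counted at a site where the gap was under 100 bp, as bedtools 2.31.1 window counts it. On simulated peaks, 616 of 616 sites were given the right membership. The reference NCBIM37 is the same assembly as mm9, and no peak passed the end of a chromosome. Genes are its protein-coding GENCODE genes, and of the list genes only Sox1 was not matched. Shares have Wilson and differences of shares Newcombe 95% intervals. SIM2 levels were compared within each clone and tested over the 3 clones by exact sign flips.

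Sites were named by rule. The rule took the 12 members bound in all 7 libraries with the highest mean MED1 and MED12 percentile, every member without NANOG, the 3 groups within 10 kb with most MED12, list genes with a member of both Mediator proteins within 50 kb, the 5 members with MED1 alone and most MED1, and 3 sites on either side of the window. The remaining Sox2 sites fall outside it and were named after their values were seen. A site that the rule names is not reported here. Members, gene lists, motifs and tests were chosen with earlier results of these data known. Alternatives covered the merging distance, the window, thresholds on fold over input, the EB3 filter, each clone left out, the measure of SIM2 level, the annotation, the stitching distance and the motif window.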

Additional observations from a re-analysis of the deposited data

How the results depend on the processing

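Of 144 alternative values, 94 were labelled as unchanged and 50 as moved. Unchanged meant within the counting interval, within 1.5 times the count or, for the SIM2 difference, only the same sign. Most are counts or shares without a direction, and the SIM2 difference kept its sign in each alternative. Merging peaks within 200 bp and keeping EB3 sites moved none. With a 50 bp merging distance 5.90% of members had another member within 10 kb. A window of 0 bp gave a NANOG share of 92.3% at members and 69.6% at other sites, and a window of 500 bp gave 99.7% at members.

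With NANOG, OCT4, MED1 and MED12 peaks at least 8 times the input, 85 sites (6.92%) were members, 21 with both Mediator proteins. NANOG was then at 64.8% of other sites, OCT4 at 40% of members and 10.1% of other sites, 38.8% of members were in all 3 clones, and the median TSS distance was 23257 bp. The OCT4 shares fall here in part by construction, since OCT4 peaks were filtered too. With MED1 and MED12 peaks at least 5 times the input the share of members was 21.1%, 85 had both proteins, and OCT4 was at 79.5%. With SIM2 peaks at least 8 times the input, 103 sites (39.5%) were members, 47 with both, OCT4 was at 79.6% of members and 48.7% of other sites, NANOG at 86.7% of other sites, 26.2% were in all 3 clones and 3.88% had another member within 10 kb. Sites in all 3 clones gave 120 members (34.7%), 49 with both, OCT4 at 80.8% and 47.3%, NANOG at 84.5% of other sites and 1.67% with another member within 10 kb. The cause of these shifts was not tested.

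Leaving out 1 clone gave 123 (without A6), 134 (without B8) or 343 members (without C4), a share of members of 29.4% to 34.9%, and 50 to 123 members with both proteins. OCT4 was at 73.5% to 80.6% of members and 34.1% to 46.7% of other sites, NANOG at 75.3% to 84.4% of other sites, and 1.63% to 8.75% of members had another member within 10 kb, the lowest without A6. The share in all 3 clones cannot be computed then. The SIM2 difference stayed between 0.03 and 0.24 on the log2 scale over all alternatives. All annotated genes gave a median TSS distance of 12849 bp, and stitching over 25 kb gave 13.2% of members with another member. With 100 bp motif windows, 4 of 6 motif shares at members moved, and the KLF core went from 10.1% of members and 9.72% of other sites to 4.38% and 5.90%. The share in all 3 clones differed by 6.72 points (members minus other sites) over all sites and by -0.964 points among sites with NANOG and OCT4. Comparisons among sites with NANOG and OCT4, the mean of log2 values, total tags and sites in A6 and B8 were added after the data were seen. The SIM2 difference is paired by clone, and the other libraries have no replicates to pair.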
